A study of Mus musculus with 24 samples.

Results

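*F3*, *Tcim*, *Zfp282*, *Mxd1*, *Arhgap28*, *Rusc2* and *Ppp2r5d* are 7 genes of the mouse medial prefrontal cortex (mPFC) that were chosen by their measured RNA levels in these same mice, namely the difference with duloxetine in mice that did or did not also receive the gut bacterium *Ruminococcus flavefaciens*. They were found by gene name in the deposited table, where all 7 are present among 15456 genes, and all 7 passed the minimum mean of 10 normalized counts that left 14974 genes for testing. The 24 male BALB/C mice (BALB/c OlaHsd in the methods), at postnatal week 11 according to the labels, fell into 4 groups of 6: controls, which the labels call untreated and which received PBS according to the methods, mice given duloxetine (dul), mice given *R. flavefaciens* (Rum) and mice given both (dul+Rum). Duloxetine, an inhibitor of serotonin and norepinephrine reuptake, was injected daily, and the live bacterium was given by gavage. The labels name no mutation or transgene, and 1 library of poly(A) RNA was made per mouse from a tissue punch that holds all cell types of the region. In such bulk tissue, fewer cells of a type and less RNA per cell cannot be told apart.

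The 7 genes do not form a pathway. *F3* encodes tissue factor, the cell surface receptor for coagulation factor VII that starts the extrinsic clotting cascade, and in the brain it is known as an astrocyte product. *Tcim* encodes a small protein that binds Chibby and thereby favours beta-catenin dependent transcription. The other members are regulators inside the cell. Mxd1 pairs with Max and represses genes that Myc:Max dimers activate, Zfp282 is a KRAB zinc finger protein, Arhgap28 stimulates GTP hydrolysis by RhoA, Rusc2 is a RUN and SH3 domain protein of vesicle transport, and Ppp2r5d is a B56 regulatory subunit of protein phosphatase 2A (PP2A).

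Recovered reads, the deposited values divided by the step of each mouse's column, ranged from 12811413 to 15607343 per mouse. Libraries of the dul group were deeper than those of the controls, with means of 14518056 and 13716312 reads (exact permutation test, two-sided, p = 0.00433, adjusted over 2 tests 0.00866, n = 6 mice per group), and 5 of 6 exceeded every control. The dul+Rum and Rum groups had means of 14767515 and 13823354 reads (exact permutation test, two-sided, p = 0.0714, adjusted 0.0714, n = 6 per group). The tissue label was checked against marker genes. All 5 markers of excitatory neurons were detected, with *Camk2a* the most abundant at a mean of 52794 normalized counts, and so were all listed markers of the upper and the deep cortical layers. Some libraries stood apart. Rum mouse 3 had 791 summed normalized counts of choroid plexus markers, against 152 in the next highest mouse, and 4719.9 of striatal markers, against 2748 in the next highest. Rum mouse 6 was the farthest from its own group, where comparison of its reads with those of the other Rum mice gave a chi-square per degree of freedom of 11.53 to 25.89, and it had the lowest sum of astrocyte markers, 55965 normalized counts against 62068 in the next lowest mouse. By the median chi-square per degree of freedom, 20.69 for Rum mouse 6, the next farthest was dul+Rum mouse 4, with 14.22 (7.21 to 20.84). After it came dul+Rum mouse 6, with 13.4 (3.38 to 20.84). Rum mice 4 and 5 had higher single values, 25.89 and 25.06, each in the pair with Rum mouse 6. The log2 fold changes of the 7 genes for duloxetine, averaged over mice with and without the bacterium, were without Rum mouse 3 0.43 for *F3*, 1.06 for *Tcim*, -0.18 for *Zfp282*, -0.26 for *Mxd1*, -0.62 for *Arhgap28*, -0.13 for *Rusc2* and -0.11 for *Ppp2r5d*. Without Rum mouse 6 they were 0.43, 1.00, -0.19, -0.28, -0.66, -0.14 and -0.11 in the same order, and the values with all mice are given below.

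The 250 bases in front of the RefSeq transcription start (GRCm38.p6) were read for 6 of the 7 genes, all but *Tcim*. RefSeq gives several starts for some of them, so that the 6 genes have 10 windows, of which the 2 of *Ppp2r5d* and the first 2 of *Rusc2* overlap and share their GC boxes and, in *Ppp2r5d*, the CCAAT boxes. A set of 5 short motifs was searched on both strands in 32851 such windows: the AP-1 site TGANTCA, the cyclic AMP response element TGACGTCA, the E-box CACGTG bound by Max dimers, the GC box GGGCGG and the CCAAT box. The *F3* window is shown because it alone among the 10 held AP-1 sites, 2 of them, 146 and 135 bases before the start. One or more occurred in 6.75% of all windows and more than 1 in 0.338%. The *Mxd1* and *Ppp2r5d* windows are shown because each held 4 CCAAT boxes, while 33.8% of all windows held 1 or more and 10.1% more than 1. The GC box occurred in 8 of the 10 windows, some of which overlap, and in 32.7% of all windows. Each of the 6 genes had a window with it, with 6 boxes in *Mxd1* and 3 in *F3*. None of the 10 windows held the E-box or the cyclic AMP response element, which occurred in 6.02% and 1.55% of all windows. Capitals mark the AP-1 sites in *F3* and the CCAAT boxes in the other 2 windows. Each sequence runs 5′ to 3′ on the strand of its gene, and a match is a run of letters, not a measured binding site.
F3, chr3:121723287-121723536, plus strand: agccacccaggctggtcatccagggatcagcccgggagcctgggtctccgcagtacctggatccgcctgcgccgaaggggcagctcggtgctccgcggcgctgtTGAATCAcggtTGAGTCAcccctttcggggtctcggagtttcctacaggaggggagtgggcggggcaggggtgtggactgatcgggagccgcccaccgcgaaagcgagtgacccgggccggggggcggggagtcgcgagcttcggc
Mxd1, chr6:86669160-86669409, minus strand: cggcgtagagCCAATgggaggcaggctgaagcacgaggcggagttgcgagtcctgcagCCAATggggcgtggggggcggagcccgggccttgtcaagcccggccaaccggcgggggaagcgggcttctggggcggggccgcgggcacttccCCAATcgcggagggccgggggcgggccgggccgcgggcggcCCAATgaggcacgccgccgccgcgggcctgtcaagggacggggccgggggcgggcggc
Ppp2r5d, chr17:46705027-46705276, minus strand: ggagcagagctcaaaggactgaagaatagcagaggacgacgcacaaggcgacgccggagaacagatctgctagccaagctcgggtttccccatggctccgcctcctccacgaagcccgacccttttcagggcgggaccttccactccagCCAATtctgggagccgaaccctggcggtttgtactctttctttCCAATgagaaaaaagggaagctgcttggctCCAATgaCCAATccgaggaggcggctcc

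The levels of the 7 genes spanned a wide range. Divided by exon length, mean levels were 339 normalized counts per kb for *Ppp2r5d*, 335 for *Rusc2*, 141 for *F3*, 49.5 for *Mxd1*, 34.7 for *Zfp282*, 5.95 for *Tcim* and 1.88 for *Arhgap28*. *Ppp2r5d* and *Rusc2* differed by less than the spread between mice of a group. Per kb they stood above 87.3% and 87.1% of all genes of the table with a known exon length, tested or not. *Tcim* stood above 10.5% and *Arhgap28* above 1.23% of those genes. These last genes rested on 2 to 22 and on 4 to 19 recovered reads per mouse, so their values carry a counting error far above that of the others. *F3* rested on 205 to 561 reads, *Zfp282* on 230 to 308, *Mxd1* on 280 to 435, *Ppp2r5d* on 1007 to 1279 and *Rusc2* on 2182 to 2894.

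*F3* (ENSMUSG00000028128.13, chromosome 3, 121723537 to 121735048, plus strand) was higher in mice given duloxetine. It had 217 to 333 normalized counts in the controls (median 268) and 317 to 489 in the dul group (median 353). Among mice given the bacterium the range was 299 to 399.8 without duloxetine (median 342) and 360.1 to 543 with it (median 416). The ranges overlapped in both pairs, with 4 of 6 dul mice above every control and 5 of 6 dul+Rum mice above every Rum mouse. Group means were 267 ± 48.2, 381 ± 71.7, 342 ± 38.3 and 435 ± 63.5 (SD, n = 6 each) in control, dul, Rum and dul+Rum mice, so that the dul+Rum mice were the highest and did not overlap the controls. On the log2(value + 1) scale the difference was 0.51 (SE 0.12) for dul against control and 0.34 (SE 0.12) for dul+Rum against Rum.

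*Tcim* (ENSMUSG00000056313.5, chromosome 8, 24437180 to 24438984, minus strand), a gene with 1 annotated transcript, was about 2-fold higher with duloxetine in both settings. Controls had 2.08 to 11.6 normalized counts (median 4.07) and dul mice 8.15 to 18.7 (median 12.1). Rum mice had 5.09 to 10.7 (median 8.65) and dul+Rum mice 13.2 to 21.4 (median 16.3). All dul+Rum mice lay above all Rum mice, while 4 of 6 dul mice lay above all controls. Means were 5.87 ± 4.05, 12.4 ± 3.66, 8.06 ± 2.26 and 16.7 ± 3.56 (SD, n = 6 each) in control, dul, Rum and dul+Rum mice. Its log2 differences, 1.12 (SE 0.3) without and 0.98 (SE 0.3) with the bacterium, were the highest of the 7 genes, and a coefficient of variation of 69% among controls was the widest spread of any gene and group.

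*Mxd1* (ENSMUSG00000001156.9, chromosome 6, 86647042 to 86669161, minus strand), the Max partner that opposes Myc, was lower with duloxetine. Control values ran from 313 to 430.1 (median 383) and dul values from 283 to 325 (median 309.5). Rum mice had 310.3 to 425 (median 400.2) and dul+Rum mice 299 to 348 (median 328). The lowest control and the lowest Rum mouse fell among the duloxetine mice, and the groups therefore overlapped in both pairs. The log2 differences were -0.30 (SE 0.075) and -0.24 (SE 0.075). Its means of 380.1 ± 38.8 in control and 386 ± 45.8 in Rum mice were close, as were 307 ± 14.8 in dul and 326 ± 19.4 in dul+Rum mice (SD, n = 6 each). The SD was smaller in both groups given duloxetine, a difference that was not tested.

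*Zfp282* (ENSMUSG00000025821.9, chromosome 6, 47877204 to 47908485, plus strand) was lower with duloxetine by a small and even margin. Controls had 281 to 308 normalized counts (median 300.2) and dul mice 234 to 271 (median 256), with no overlap. In mice given the bacterium the values were 262 to 282 (median 266) without and 223 to 262 (median 244) with duloxetine, and 5 of 6 dul+Rum mice lay below every Rum mouse. The log2 differences were -0.21 (SE 0.053) and -0.16 (SE 0.053). Means were 296 ± 12.2, 255 ± 13.7, 269.7 ± 8.81 and 242 ± 15.2 (SD, n = 6 each) in control, dul, Rum and dul+Rum mice.

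*Rusc2* (ENSMUSG00000035969.15, chromosome 4, 43381979 to 43427088, plus strand), an abundant gene, differed by a small margin, with mean ratios of 0.936 for dul to control and 0.892 for dul+Rum to Rum. It had 2687 to 3025 normalized counts in controls (median 2821) and 2473 to 2826 in dul mice (median 2677). The range was 2534 to 2836 in Rum mice (median 2739) and 2148 to 2602 in dul+Rum mice (median 2470.4). Of the dul mice 3 of 6 lay below every control, and the lowest values were in the dul+Rum group, 5 of 6 of them below every Rum mouse. The log2 differences were -0.10 (SE 0.046) and -0.17 (SE 0.046).

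*Ppp2r5d* (ENSMUSG00000059409.8, chromosome 17, 46682991 to 46705002, minus strand) was lower with duloxetine by a small margin. Controls had 1201 to 1249 normalized counts (median 1226) and dul mice 1073 to 1220 (median 1155), with 5 of 6 below every control. Rum mice had 1147 to 1197 (median 1174) and dul+Rum mice 975 to 1125 (median 1084), with no overlap. The coefficient of variation was 1.52% in control and 1.6% in Rum mice, and 5.16% and 5.08% in dul and dul+Rum mice, a difference that was not tested. At 1007 to 1279 recovered reads per mouse, counting error alone gives a spread above the 1.52% and 1.6% seen without duloxetine. Those 2 low values therefore do not show that the gene is tightly regulated. The log2 differences were -0.10 (SE 0.04) and -0.13 (SE 0.04). Its end overlaps *Mea1* (46681137 to 46683105) on the opposite strand, and since the use of strand in counting is not given in the sources used here, reads of the shared stretch cannot be told apart. *Mea1* had a log2 fold change of -0.09 for duloxetine averaged over the bacterium (limma, adjusted p = 0.359).

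*Arhgap28* (ENSMUSG00000024043.13, chromosome 17, 67842713 to 68004120, minus strand) was lower with duloxetine in mice without the bacterium, while its difference in mice given the bacterium was small and imprecise. Controls had 8.48 to 19.7 normalized counts (median 16.6) and dul mice 3.9 to 9.17 (median 6.8), with 5 of 6 below every control. Rum mice had 6.11 to 15.5 (median 8.65) and dul+Rum mice 4.84 to 12.4 (median 7.81), and these ranges largely coincided. The log2 difference was -1.07 (SE 0.26) without the bacterium and -0.15 (SE 0.26, 95% interval -0.68 to 0.37) with it, 2 values that are not shown to differ. The difference with the bacterium ran from -0.27 to -0.01 in fits without 1 mouse. Over the other ways of testing it ran from -0.33 to -0.11. The means of 15.7 ± 4.17, 6.87 ± 1.74, 9.4 ± 3.22 and 8.47 ± 3.16 (SD, n = 6 each) put the control group above the 3 treated groups.

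**Figure D1:**
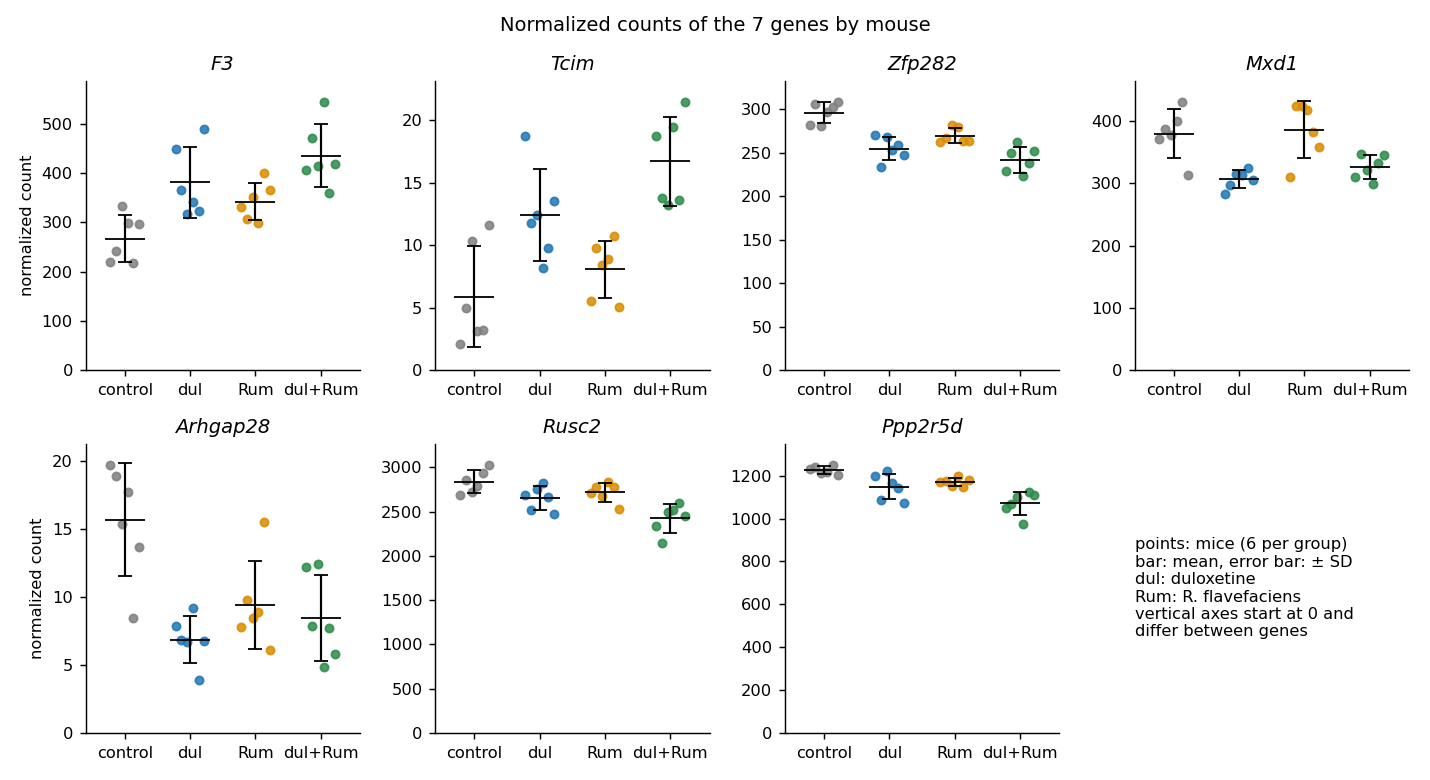
Normalized counts (vertical axis, from 0, scaled separately for each gene) of the 7 genes in the 6 mice of each group, with the group mean and SD. *F3* and *Tcim* are higher and *Zfp282*, *Mxd1*, *Rusc2* and *Ppp2r5d* lower in both groups given duloxetine than in the matching groups without it, while *Arhgap28* is high in the controls, with a mean of 15.7, and between 6.87 and 9.4 in the other groups.

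Duloxetine had been used to choose the genes, so its effects on them are a description, and their place in the fit of all genes says only where they lie in it. In the limma fit of all genes, the effect averaged over mice with and without the bacterium (12 mice against 12) had an adjusted p-value under 0.05 for 154 of 14974 genes, or 1.03%, 74 higher and 80 lower with duloxetine. With the columns rescaled to their upper quartile the split was 100 higher and 47 lower. Of the 7 genes 6 were among the 154, at ranks 27 (*Mxd1*), 28 (*F3*), 35 (*Tcim*), 37 (*Zfp282*), 141 (*Ppp2r5d*) and 144 (*Rusc2*), and *Arhgap28* stood at rank 367. *Ppp2r5d* and *Rusc2* lay at the edge, with adjusted p-values of 0.0454 and 0.0458, and left the 154 in 18 and 15 of 24 fits without 1 mouse and with quantile and upper-quartile normalization and edgeR. The averaged log2 fold changes were 0.42 (SE 0.083) for *F3*, 1.05 (SE 0.21) for *Tcim*, -0.27 (SE 0.053) for *Mxd1*, -0.18 (SE 0.038) for *Zfp282*, -0.61 (SE 0.18) for *Arhgap28*, -0.13 (SE 0.033) for *Rusc2* and -0.11 (SE 0.028) for *Ppp2r5d*. With reads thinned to equal depth they were 0.41, 1.04, -0.29, -0.18, -0.57, -0.13 and -0.12 in the same order, with *Ppp2r5d* outside the threshold (adjusted p = 0.0525) and the adjusted p of *Arhgap28* at 0.18 against 0.0957. The last genes inside the threshold were *Ndel1*, *Max* and *Fkbp4*, with log2 fold changes of -0.14, -0.14 and -0.15, and the first outside were *Erf*, *Ccdc184* and *Zfp950*, with -0.20, -0.18 and 0.35. The 7 genes were not the top of this order. The 10 smallest p-values among the other called genes belonged to *Adrb1*, *Mthfd1l*, *Spry2*, *Npas4*, *Cry1*, *Otud1*, *Aimp2*, *Dbp*, *mt-Tl1* and *Ppp1r15b*.

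The pairs of groups were also compared separately. For dul against control limma called 0 genes (0.0%), with 573 (3.83%) at an unadjusted p under 0.05, edgeR called 0 and DESeq2 1, and none of the 3 tools called one of the 7. For dul+Rum against Rum 334 genes (2.23%) were called by limma, and 0 of the 7. The count was 0 when only these 2 groups were fitted, 610 with DESeq2 and between 47 (without dul+Rum mouse 2) and 577 (without Rum mouse 3) when 1 mouse was left out. On the recovered reads edgeR called *Tcim* in this pair and DESeq2 called *Tcim*, *Mxd1*, *Rusc2* and *Ppp2r5d*, and *Rusc2* was also inside the threshold of limma with a minimum mean of 50, with thinned reads, with the block for the first label number, and without Rum mouse 3, Rum mouse 6 or dul+Rum mouse 5. *Mxd1* was inside it without Rum mouse 1. Groups did not overlap for *Zfp282* in dul against control, against 0.334% of all genes, and for *Tcim* and *Ppp2r5d* in dul+Rum against Rum, against 1.44%. The dul+Rum mice did not overlap the controls for 5 genes, *F3*, *Tcim*, *Zfp282*, *Rusc2* and *Ppp2r5d*, against 2.04% of all genes. These counts are a description, because the choice of the genes rests on the same mice.

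Whether duloxetine acted differently with the bacterium was estimated as the interaction, the duloxetine difference in mice given *R. flavefaciens* minus that in mice not given it. None of the 7 genes passed the threshold in limma, edgeR or DESeq2. Over all genes limma called 0 (0.0%), as did edgeR and DESeq2, and 1128 genes (7.53%) had an unadjusted p under 0.05 in limma, among them 1 of the 7. That gene was *Arhgap28*, with an interaction of 0.92 on the log2 scale (95% interval 0.17 to 1.66, limma adjusted p = 0.639), and the 2 effects of duloxetine on it are therefore not shown to differ. For the other 6 genes the intervals were -0.51 to 0.18 for *F3*, -1.01 to 0.72 for *Tcim*, -0.10 to 0.21 for *Zfp282*, -0.15 to 0.28 for *Mxd1*, -0.21 to 0.06 for *Rusc2* and -0.15 to 0.08 for *Ppp2r5d*. All include 0, and the one of *Tcim* is wide enough to hold a loss or a gain of most of its duloxetine effect. The genes were chosen on their duloxetine difference, but the comparison and threshold used are not given in the sources used here. A choice of genes that differed in both pairs favours small interactions and one that leaned on 1 pair favours large ones, so these values are a description and do not show that duloxetine acted alike in both settings.

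The effect of *R. flavefaciens*, averaged over mice with and without duloxetine, was tested in the same fit. It passed the threshold for 0 of the 7 genes and for 4 of all genes (0.0267%). An unadjusted p under 0.05 was found for 5 of the 7 genes and for 18.1% of all genes. *F3* was higher by 0.28 (95% interval 0.11 to 0.46, limma adjusted p = 0.111) and *Tcim* by 0.49 (0.06 to 0.92, adjusted p = 0.22). *Zfp282* differed by -0.10 (-0.18 to -0.03, adjusted p = 0.151), *Rusc2* by -0.10 (-0.16 to -0.03, adjusted p = 0.132) and *Ppp2r5d* by -0.08 (-0.14 to -0.03, adjusted p = 0.13). *Arhgap28*, at -0.22 (-0.60 to 0.15), and *Mxd1*, at 0.05 (-0.05 to 0.16), had intervals that include 0. The choice of the genes, if it leaned on dul+Rum against control mice, would touch this test too. DESeq2 on the recovered reads called *F3* for the bacterium, with an adjusted p of 0.0427, among 361 genes. For *Ppp2r5d*, Rum mice also lay wholly below the controls, against 1.62% of all genes. The highest Rum mouse had 1197 and the lowest control 1201 normalized counts, a gap smaller than the counting error of a single mouse. No member separated the dul+Rum from the dul group (0.254% of all genes).

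**Figure D2:**
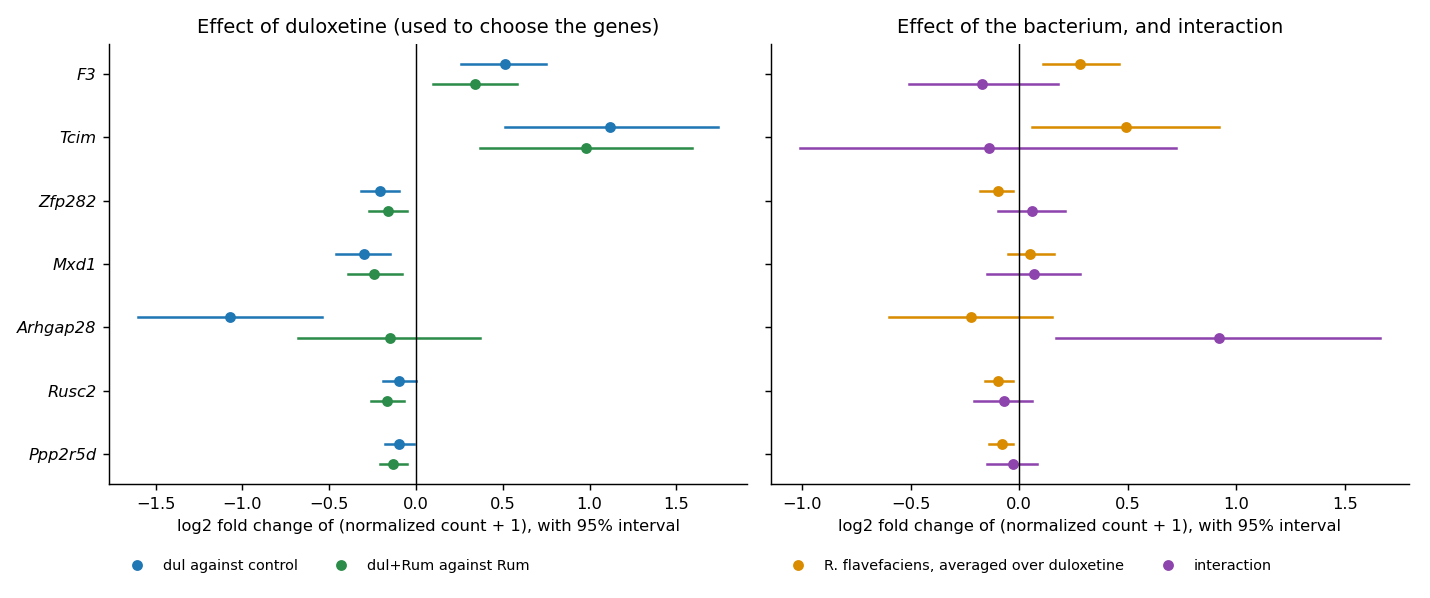
Log2 fold changes of the 7 genes (horizontal axis, on log2 of normalized count + 1) with 95% intervals from limma. The left panel shows duloxetine without and with the bacterium, where the 2 points of each gene lie on the same side of 0 and those of *Arhgap28* are farthest apart (-1.07 and -0.15), and the right panel the averaged effect of *R. flavefaciens* and the interaction.

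For 6 of the 7 genes, all but *Arhgap28*, other genes of its family or pathway were examined for the averaged effect of duloxetine, in lists drawn up by family or pathway with earlier results of these data known. Among all tested genes 0.534% were called lower and 0.494% higher, and the median log2 fold change was 0.003. In the MAX network, here Max, the Myc, Mxd and Mlx families and related genes, among them the Sin3 corepressors, 2 of 13 other genes were called, both lower, with a median of -0.054. *Mycn*, the neuronal Myc family gene, fell by 0.45 on the log2 scale (SE 0.084, limma adjusted p = 0.0116), from 129 ± 25.5 normalized counts in controls to 97.6 ± 9.54 in dul mice and from 132 ± 17 in Rum to 91.7 ± 12.3 in dul+Rum mice (SD, n = 6 each). *Max* itself, the shared partner of Myc and Mxd proteins, fell by 0.14 (SE 0.035, adjusted p = 0.0489), from 589 ± 16.2 to 541 ± 14.6 and from 645 ± 55.6 to 578 ± 24.4 (SD, n = 6 each). *Mycl*, at 0.09, and *Mlxipl*, which encodes the glucose-responsive factor ChREBP, at 0.43 (adjusted p = 0.0957), were not called. The call of *Max* was at the edge of the threshold, since its adjusted p was 0.0489 and it was over the threshold with 4 of 9 other ways of testing (range 0.0189 to 0.142), and in 21 of 24 fits without 1 mouse (range 0.0226 to 0.0996), whereas *Mycn* was called with all 9 and in all 24. The count of called genes in this list was therefore 1 in most fits without 1 mouse.

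In limma no gene of the other 5 lists described here was called for the averaged effect of duloxetine, to which the values below refer. For dul+Rum against Rum limma called 1 of the 27 other PP2A genes, lower, against 2.23% of all genes. In that pair it also called 1 of the 22 RUN domain genes and 1 of the 20 Wnt genes, each higher, and none in the coagulation and KRAB lists. In the coagulation list 15 of 30 genes were tested, 14 besides *F3*. Most plasma clotting factors are not listed in the table, and the median was 0.018. *F2r*, the thrombin receptor, had 0.17 (adjusted p = 0.335), and *Plat*, the tissue plasminogen activator, -0.09 (adjusted p = 0.385). For the 27 other PP2A genes the median was -0.028. *Strn4*, a striatin-type regulatory subunit, had -0.09 (adjusted p = 0.0631) and was inside the threshold with DESeq2 (0.0067), a minimum mean of 50 (0.0493) and the block (0.04). *Ppp2cb*, a catalytic subunit, had -0.10 (adjusted p = 0.202), and *Ppp2r3d* 0.14 (adjusted p = 0.17). The 22 other RUN domain genes and partners of Rusc proteins had a median of -0.03, with *Rufy2* at 0.16 (adjusted p = 0.0723, but 0.0309 with DESeq2, 0.0461 with upper-quartile rescaling and 0.0484 with the block) and *Fyco1* at 0.22 (adjusted p = 0.222). The 17 other KRAB repression genes and zinc finger genes near *Zfp282* lay between -0.12 and 0.11, among them *Trim28*, the KRAB corepressor, at -0.07 (adjusted p = 0.255). The 20 other genes of Chibby and Wnt signalling had a median of 0.014, with *Tcf7l2* and *Nkd2* at 0.29 (adjusted p = 0.274 and 0.186) and *Tcf7* at -0.23 (adjusted p = 0.334).

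**Figure D3:**
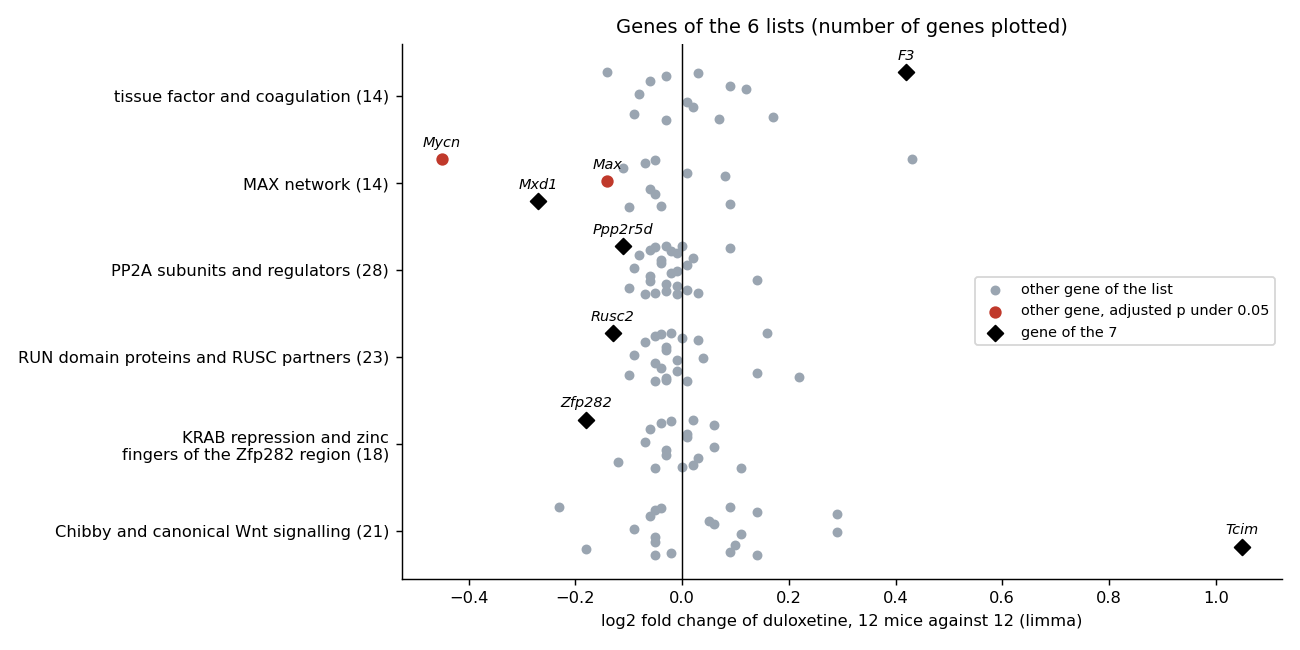
Log2 fold change of duloxetine, averaged over mice with and without the bacterium (horizontal axis), for the tested genes of 6 lists, one per row and without 1 coagulation gene that is not reported here, with the vertical scatter within a row arbitrary. The chosen genes (diamonds) lie at or near the margin of their lists, on values used to choose them, and of the other genes *Mycn* (-0.45) and *Max* (-0.14) have an adjusted p under 0.05.

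The nearest tested gene on each side of each member was not called in any case. *Zfp398* and *Zfp212*, which flank *Zfp282* at 3667 and 11991 bases, had log2 fold changes of -0.05 and 0.00 for averaged duloxetine. *Unc13b*, 117108 bases before *Rusc2*, had 0.14 (limma adjusted p = 0.136).

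The 7 genes were also compared with each other across the 24 mice, after the mean of each group was taken off. Pearson's r over the 21 pairs ran from -0.59 to 0.65, with a median of 0.05. This median pools pairs of both signs and does not show that the genes varied apart. *Zfp282* and *Ppp2r5d* varied together (r = 0.65, Spearman's correlation 0.59, r = 0.58 without the 2 mice farthest from the median of *Zfp282*), as did *F3* and *Tcim* (r = 0.52, Spearman 0.47, 0.44 without 2 mice), and *F3* and *Ppp2r5d* varied in opposite directions (r = -0.59, Spearman -0.60, -0.52 without 2 mice). Such correlations share tissue composition and library, and are given as a description over 24 mice. The genes most like each member were picked as the highest of 14973 correlations per gene. For *F3* these were *H2-D1*, an MHC class I gene (0.86), and *Vwf*, the endothelial clotting protein von Willebrand factor (0.82). *Tcim* was most like *Ecsit* (0.70, but 0.46 without 2 mice), *Ccdc86* (0.68) and *Fzd4*, a Wnt receptor (0.67). *Mxd1* was most like *Peli1*, a ubiquitin ligase of innate immune signalling (0.77), *Zfp282* like *Urb2* (0.75), *Arhgap28* like *Abca8b* (0.77), *Rusc2* like *Galnt9* (0.82) and *Ppp2r5d* like *Ostm1* (0.76). The most unlike genes had r between -0.74 (*Nfs1* for *Tcim*) and -0.79 (*Thap12* for *Rusc2*).

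Markers of other cell types varied with several of the genes. Within groups, *F3* varied with the mean of the markers of endothelial cells and pericytes (r = 0.62, Spearman 0.63, 0.60 without 2 mice). It also varied with those of meninges and fibroblasts (r = 0.58, 0.43 without 2 mice), astrocytes (r = 0.51) and oligodendrocyte precursors (r = 0.50). With blood its r was 0.50, but 0.35 by Spearman and 0.35 without 2 mice. *Ppp2r5d* ran against those of endothelial cells and pericytes (r = -0.75, Spearman -0.62, -0.62 without 2 mice), astrocytes (r = -0.61), oligodendrocyte precursors (r = -0.59), microglia (r = -0.58) and oligodendrocytes (r = -0.54). Its r with blood was -0.46 (Spearman -0.27, -0.35 without 2 mice). *Rusc2* ran against the markers of microglia (r = -0.45, Spearman -0.52, -0.67 without 2 mice) and of endothelial cells and pericytes (r = -0.44, Spearman -0.56, -0.70 without 2 mice), and *Mxd1* against the meningeal markers (r = -0.51, Spearman -0.67, -0.61 without 2 mice). *Rusc2* also varied with the markers of excitatory neurons (r = 0.43, Spearman 0.52, 0.58 without 2 mice). It ran against those of choroid plexus (r = -0.41), astrocytes (r = -0.40) and blood (r = -0.40, but -0.05 without 2 mice). All 8 endothelial and pericyte markers were tested, and their summed normalized counts, led by *Rgs5*, were 5379.8 ± 310.4, 5679.8 ± 616, 5676 ± 370.2 and 6064 ± 923 (SD, n = 6 each) in control, dul, Rum and dul+Rum mice. The 7 astrocyte markers, led by *Slc1a2*, summed to 68548 ± 4485, 70736 ± 3974, 66804 ± 6660.2 and 76338 ± 9198, and the 6 meningeal markers, led by *Col1a2*, to 801 ± 329, 820.5 ± 288, 886 ± 198 and 725 ± 99.5. The 6 microglial markers, led by *Csf1r*, summed to 3299.5 ± 166, 3649 ± 327, 3673 ± 263 and 3804 ± 509. The 5 blood markers, led by *Hbb-bs*, summed to 349 ± 65.7, 462 ± 265, 598 ± 204 and 633 ± 351. For duloxetine averaged over the bacterium, 0 markers of any of the 13 cell type and region lists passed the threshold in limma. At an unadjusted p under 0.05, *Flt1* (0.15) and *Rgs5* (0.17) were higher and *Cldn5* (-0.23) lower among endothelial and pericyte markers, and *Aqp4* (0.13) and *Slc1a2* (0.15) were higher among astrocyte markers. *Cx3cr1* (0.15) and *P2ry12* (0.16) were higher among microglial markers, and *Vip* (-0.12) was lower among markers of inhibitory neurons. The part of these cells in the differences of *F3*, *Mxd1*, *Rusc2* and *Ppp2r5d* was not tested. The choroid plexus markers *Folr1* and *Otx2* are not listed in the table.

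**Figure D4:**
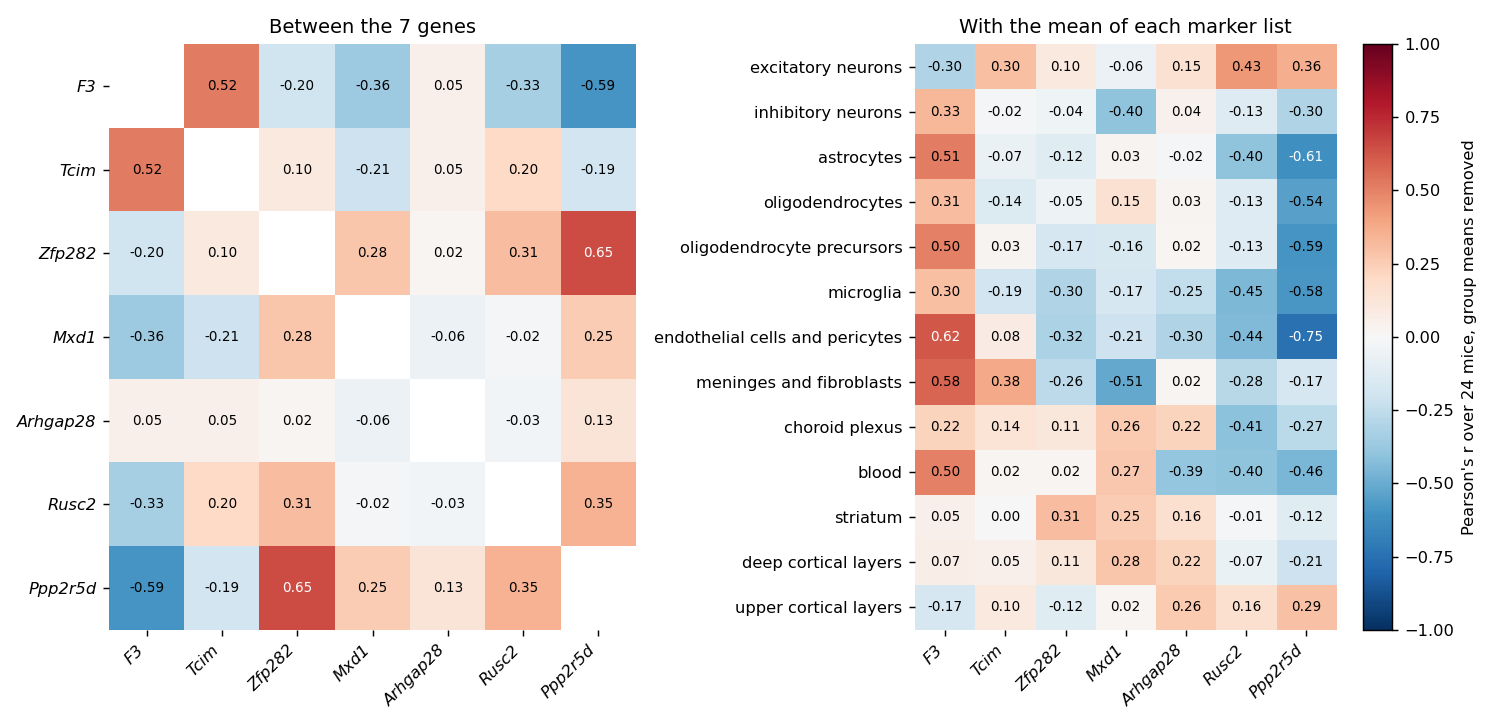
Pearson's r over 24 mice after the group means were removed, between the 7 genes (left) and between each gene and the mean log2 level of each marker list (right), from blue (-1) to red (1). *F3* is red and *Ppp2r5d* blue for endothelial cells and pericytes (0.62 and -0.75) and for astrocytes (0.51 and -0.61).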

How the data were processed

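Poly(A) RNA of the mPFC was sequenced and its reads were mapped by the authors with Tophat2 to GRCm38.p5 (methods), while the submitters' processing notes list TopHat2 2.1.0, Bowtie2 2.2.6, DESeq2 1.18.1 and the build mm9. Of 15438 genes of the table found in GENCODE vM21, an annotation of GRCm38, 14253 have the same position there. The position of *Ppp2r5d* differs, and its exon length is that of GENCODE vM21. The counting program, its use of strand and the gene filter are not given in the sources used here. According to the methods, counts were normalized with DESeq2 to one common number of reads for every sample, but the deposited signal values summed to between 13536601 and 14568454 per mouse and behaved as gene counts divided by 1 factor per mouse, which is how they were read here. Of 370875 non-zero values, 99.997% were whole multiples of a step per mouse within a tolerance of 0.0051, which gave the recovered reads, and 69 values were 0. No 2 mice of a group agreed within sampling noise (chi-square per degree of freedom 2.07 to 25.89 over 60 pairs).

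limma 3.58.1 (R 4.3.3) was run on log2(value + 1) for the 14974 genes whose mean reached 10, with a trended prior and the 4 groups in 1 fit, so that each comparison shares the same estimate of the spread. Tests were two-sided, with Benjamini-Hochberg adjustment within each comparison and a threshold of 0.05. A fold change on this scale understates the change of genes with few counts. The unit was not raw counts, so edgeR 4.0.16 and DESeq2 1.42.0 ran on the recovered reads as alternatives, beside a pseudocount of 0.1, every gene kept, a higher minimum mean (50), quantile and upper-quartile normalization, thinned reads, a random block for the first label number, fits of the 2 groups compared and leaving out each mouse. The script was tested on simulated data.

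The 7 genes, the 7 lists and the 13 marker lists were chosen with earlier results of these data known. The list for *Arhgap28* and some single genes that the naming rule picked are not reported here. The rule for other named genes took the 3 most and 1 most unlike gene of each member, the 2 highest and 2 lowest genes of each list with any called, the nearest neighbours and the genes beside the threshold, and of 148 other called genes only the 10 with the smallest p-values are named. Positions came from the table, exon lengths from GENCODE vM21 and promoter sequences from RefSeq (GRCm38.p6). Python 3.11.15 with numpy 2.4.6, pandas 2.3.3, scipy 1.17.1 and matplotlib 3.10.9 was used.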

Additional observations from a re-analysis of the deposited data

How the results depend on the processing

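The averaged effect of duloxetine on the 7 genes had chosen them, so its stability is a description and no support. Over up to 9 other ways of testing and the fits without 1 mouse, its log2 fold change was 0.90 or higher for *Tcim* and ran from 0.39 to 0.46 for *F3*, -0.20 to -0.17 for *Zfp282*, -0.30 to -0.25 for *Mxd1*, -0.77 to -0.54 for *Arhgap28*, -0.14 to -0.11 for *Rusc2* and -0.12 to -0.09 for *Ppp2r5d*. *Tcim* and *Arhgap28*, just above the minimum mean of 10, are not in the fit at a minimum mean of 50, and DESeq2 gave them no adjusted p for the averaged effects. The place of 3 genes inside or outside the threshold moved. *Rusc2* was outside it with quantile and upper-quartile normalization and edgeR and in 15 of 24 fits without 1 mouse, *Ppp2r5d* with these 3 and thinned reads and in 18 of 24, and *Arhgap28* was inside it with quantile normalization. The interaction of *Tcim*, -0.14 with all mice, ran from -0.36 (without control mouse 6) to 0.05 (without control mouse 1). Calls over all genes moved by over 1.5 times in these cases. DESeq2 called 317 for averaged duloxetine, 1 for dul against control, 610 for dul+Rum against Rum and 361 for the averaged bacterium. The random block for mice sharing a first label number gave 255 for averaged duloxetine and 533 for dul+Rum against Rum. Its correlation was negative (-0.0451) and the numbers are shared only within a group. The block therefore lowers the standard errors between groups and is no control for what such mice share. A fit of the dul+Rum and Rum groups alone gave 0 for that pair, and quantile normalization gave 2 for the bacterium. Without 1 mouse, averaged duloxetine had 46 to 260 calls: 53, 88 and 46 without control mouse 2, 4 or 5, 60, 97, 89 and 91 without dul mouse 2, 3, 4 or 6, 77 without Rum mouse 4, and 50, 79 and 260 without dul+Rum mouse 2, 4 or 6. The count for dul+Rum against Rum ran from 47 to 577, with 577, 155 and 178 without Rum mouse 3, 4 or 6 and 47, 158 and 190 without dul+Rum mouse 2, 4 or 5. The bacterium had 1 to 135, with 2 and 2 without control mouse 5 or 6, 2 and 1 without dul mouse 1 or 3, 135, 69 and 14 without Rum mouse 2, 5 or 6 and 7 without dul+Rum mouse 5. Dul against control and the interaction had 0 calls without any 1 mouse. The difference in depth, in an alternative chosen after seeing the data, ran from 717714 to 947772 reads for dul against control and from 741773 to 1134590 for dul+Rum against Rum. For dul+Rum against Rum the p-value of the exact permutation test ran from 0.039 to 0.143. It was under 0.05 in 1 of 12 tests without 1 mouse. The cause of these changes was not tested. No paired analysis was possible because the labels give no number that pairs mice across groups, and the first label number is shared only within a group. No group of 6 mice held a value of the 7 genes beyond Dixon's limit, over 28 groups.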
